A study of Mus musculus with 140 samples.

Results

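NF-κB subunits and feedback inhibitors were followed through kidneys of septic and control mice. The 10 members were taken by gene symbol from a list, 10 of the 34255 genes in the count table, and the rule uses no expression value. The list itself was drawn up with earlier results of these data known, so the members are not an unselected sample of genes. They are the subunit genes Nfkb1, Nfkb2 and Relb and the genes of the IκB family Nfkbia, Bcl3 and Nfkbiz. The others are Tnfaip3 and Tnip1, genes of a ubiquitin-editing brake and its partner, the ubiquitin ligase gene Birc3, and the target gene Tnfaip2. Each symbol matched 1 row of the table.

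The study compared microvascular compartments of the kidney cortex during sepsis-induced kidney injury. All mice were male and wild type, of the strain C57BL6/OlaHsd. The 7 groups of 4 mice were healthy mice (0 h), sham-operated mice at 4, 24 or 72 h, and mice at the same times after cecal ligation and puncture (CLP), in which the cecum is tied and pierced so that gut bacteria leak into the abdomen. The 28 mice gave 140 libraries, 5 per mouse, with 4 from laser microdissected vessels (arterioles, post-capillary venules, glomeruli, peritubular capillaries) and 1 from whole kidney, which was not microdissected. Ages were not given in the sources used here. Libraries were made by QuantSeq, which reads the 3′ ends of transcripts. They held 4242450 to 18328741 counts and 2949 to 20474 detected genes. A level below is in CPM, the gene's count over the library total, scaled within its compartment and to a common total of 1000000, and levels are not compared between genes.

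NF-κB is a family of dimeric transcription factors that inhibitors of the IκB family hold in the cytoplasm of resting cells. Signals from cytokine receptors and Toll-like receptors activate a kinase complex that marks IκB for destruction, and the freed dimers enter the nucleus and switch on genes of inflammation, in kidney and endothelium those of leukocyte adhesion and chemokines among them. Several targets are parts of the pathway itself or its brakes, Nfkbia and Tnfaip3 being textbook cases, so their transcripts are commonly read as a sign of recent NF-κB activity.

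Promoters of the members are shown as a description of their sequence. RefSeq promoters of 300 bases (250 before to 50 after a start site, GRCm38.p6) were found for 7 of the 10 members, and Nfkb1, Relb and Nfkbiz had no entry. The 10-base κB consensus, the sequence that NF-κB dimers bind, was searched on both strands. It is close to its own reverse complement, so that matches on the 2 strands can overlap. At least 1 match was found for 6 of the 7 members, Birc3 being the one without, against 9.55% of the 27025 genes in the table. Counted by promoter, 8 of the 10 promoters of these members held a match, against 8.46% of all 32851. The members were listed as genes of the NF-κB pathway and its targets, so these shares are no independent test of the list. Tnfaip2, not called in whole kidney at 4 h, had a match, and Birc3, called there, had none. A match describes letters only. The window from 130 bases before to 20 bases after the first listed start site is shown 5′ to 3′ on the gene's strand for these 7 members, with matched bases in capitals.
Nfkbia, chr12:55492628-55492777, minus strand: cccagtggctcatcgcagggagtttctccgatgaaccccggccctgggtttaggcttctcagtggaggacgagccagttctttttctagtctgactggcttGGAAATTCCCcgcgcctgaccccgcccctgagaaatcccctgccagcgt
Nfkb2, chr19:46304607-46304756, plus strand: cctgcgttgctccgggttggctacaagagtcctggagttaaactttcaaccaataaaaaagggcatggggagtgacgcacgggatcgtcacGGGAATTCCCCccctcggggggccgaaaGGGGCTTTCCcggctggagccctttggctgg
Bcl3, chr7:19822736-19822885, minus strand: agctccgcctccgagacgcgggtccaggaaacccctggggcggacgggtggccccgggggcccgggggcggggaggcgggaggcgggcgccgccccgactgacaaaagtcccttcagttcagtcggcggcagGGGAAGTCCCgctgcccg
Tnfaip3, chr10:19015391-19015540, minus strand: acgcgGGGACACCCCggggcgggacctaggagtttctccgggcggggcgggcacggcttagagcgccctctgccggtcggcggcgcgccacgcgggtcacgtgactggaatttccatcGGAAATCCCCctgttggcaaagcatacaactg
Tnip1, chr11:54962921-54963070, minus strand: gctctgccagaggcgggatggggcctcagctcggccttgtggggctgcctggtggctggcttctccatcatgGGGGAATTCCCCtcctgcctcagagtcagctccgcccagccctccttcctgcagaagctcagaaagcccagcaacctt
Birc3, chr9:7873151-7873300, minus strand: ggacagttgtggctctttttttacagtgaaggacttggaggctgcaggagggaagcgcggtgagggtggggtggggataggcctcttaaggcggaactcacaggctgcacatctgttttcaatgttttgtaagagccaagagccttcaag
Tnfaip2, chr12:111442531-111442680, plus strand: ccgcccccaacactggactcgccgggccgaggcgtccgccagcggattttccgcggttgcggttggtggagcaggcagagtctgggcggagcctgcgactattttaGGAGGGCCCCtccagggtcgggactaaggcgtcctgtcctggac
In Nfkbia the matched 10 bases began 29 bases before the start site and read GGGAATTTCC on the opposite strand. In Tnip1, 3 overlapping positions began 58, 57 and 56 bases before it, and in Nfkb2 3 positions began 39, 38 and 11 bases before it. In Tnfaip2 the match began 24 bases before the start site, on the opposite strand.

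In whole kidney at 4 h, 9 of the 10 members were higher after CLP than after the sham operation, and Tnfaip2 was the exception (edgeR quasi-likelihood test, Benjamini-Hochberg adjusted over 14936 genes, threshold 0.05). Of all genes tested, 1.69% were called higher in this comparison. The median of the 10 log2 fold changes was 1.58, against 0.00 over all genes tested, and all 10 were positive, against 50.3% of all genes. For the 9 called members every CLP value lay above every sham value, which held for 4.86% of all genes tested. More cells of a type and more RNA per cell, or fewer and less, cannot be told apart in such bulk samples.

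**Figure D1:**
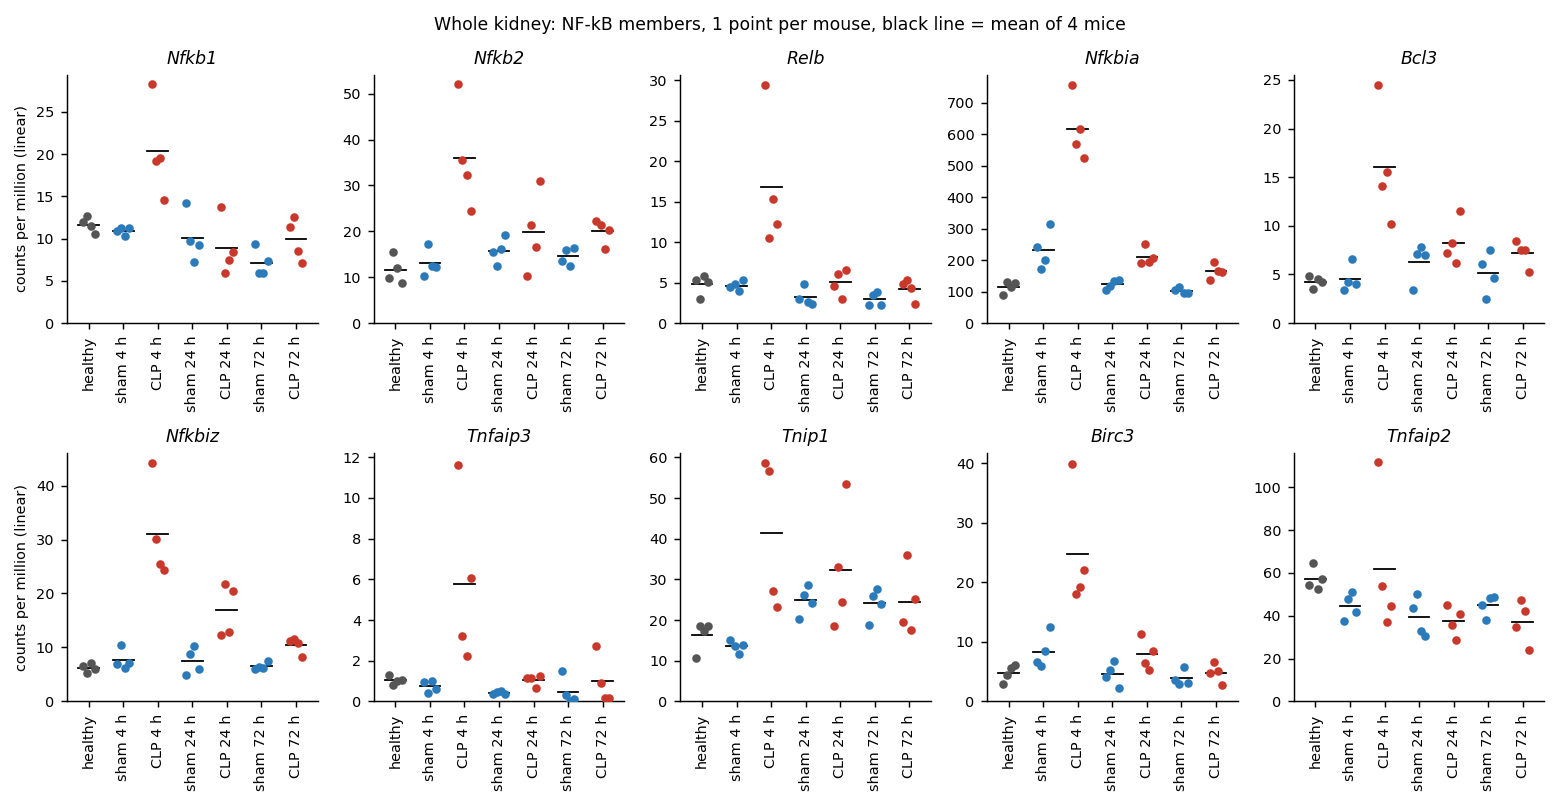
CPM (linear axis) of the 10 members in whole kidney, 1 point per mouse, with the mean of 4 mice as a black line, by group. At 4 h the 4 CLP mice lie above the 4 sham mice in all panels but that of Tnfaip2, and at 72 h only Nfkbia and Nfkbiz show such a gap.

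Among the subunit genes, Relb and Nfkb2 rose most at 4 h. Relb (chr7:19606217-19629438, minus strand, GRCm38) encodes the subunit that pairs with p52 in the alternative branch of the pathway. Its 4 CLP mice were at 29.4, 10.5, 15.4 and 12.2 CPM (replicates 1 to 4) and the 4 sham mice at 4.45, 4.85, 3.97 and 5.27 CPM. Replicate 1 was the highest CLP mouse and the groups did not overlap. The log2 fold change was 1.85 ± 0.31 (SE, 4 against 4 mice, edgeR adjusted p = 0.000312).

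Nfkb2 (chr19:46304320-46312385, plus strand), whose product p100 is both the precursor of p52 and an inhibitor, was at 52.0, 35.5, 32.3 and 24.5 CPM in CLP mice and at 10.3, 17.2, 12.5 and 12.2 CPM in sham mice. All CLP values were above the sham values, with a log2 fold change of 1.46 ± 0.25 (SE, edgeR adjusted p = 0.000337). Nfkb1 (chr3:135584655-135691547, minus strand), the gene of the subunit p50, was at 28.3, 19.1, 19.6 and 14.5 CPM against 10.9, 11.3, 10.3 and 11.2 CPM. Its groups did not overlap either, but the change was the smallest of the called members, 0.90 ± 0.23 (SE, edgeR adjusted p = 0.0322). It remained called without replicate 4 of CLP and was lost without any other of the 8 mice, with an adjusted p of up to 0.242 without replicate 1 of CLP.

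Of the members of the IκB family, Nfkbia was called at all 3 times. Nfkbia (chr12:55489410-55492647, minus strand) encodes IκBα, which retrieves NF-κB dimers from the nucleus and is resynthesised after each wave of activity. At 4 h it was at 757, 568, 616 and 524 CPM in CLP mice and at 243, 174, 201 and 316 CPM in sham mice. The lowest CLP mouse was above the highest sham mouse, and the log2 fold change was 1.40 ± 0.16 (SE, edgeR adjusted p = 1.37e-06).

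At 24 h the Nfkbia values were 191, 250, 193 and 208 CPM after CLP and 106, 119, 133 and 137 CPM after sham. The groups did not overlap, and the change was 0.77 ± 0.16 (SE, edgeR adjusted p = 0.00186). At 72 h the values were 138, 194, 165 and 161 CPM against 104, 116, 95 and 95.2 CPM. Again no CLP mouse was below a sham mouse, and the change was 0.68 ± 0.16 (SE, edgeR adjusted p = 0.00704). Without replicate 2 of the CLP mice at 72 h the adjusted p was 0.0618.

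Nfkbiz (chr16:55811375-55838899, minus strand) encodes the nuclear protein IκBζ, which enables a subset of secondary NF-κB targets. It was at 44.1, 30.1, 25.5 and 24.4 CPM in CLP mice at 4 h and at 6.84, 10.4, 6.2 and 7.14 CPM in sham mice. Every CLP mouse was above 24 CPM and every sham mouse at or under 10.4 CPM. The log2 fold change was 2.01 ± 0.24 (SE, edgeR adjusted p = 1.90e-06).

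At 24 h Nfkbiz was at 12.3, 21.7, 12.9 and 20.5 CPM after CLP and at 4.82, 8.80, 10.2 and 6.02 CPM after sham, a log2 change of 1.17 ± 0.24 (SE, edgeR adjusted p = 0.00167). The groups were still apart. At 72 h the CLP mice, at 8.24 to 11.6 CPM, also lay above the sham mice, at 6.03 to 7.52 CPM, but the change of 0.67 ± 0.25 (SE) did not pass (edgeR adjusted p = 0.16). Bcl3 (chr7:19808462-19822770, minus strand), a nuclear cofactor of p50 and p52 homodimers, was at 24.5, 14.1, 15.5 and 10.2 CPM after CLP at 4 h and at 3.37, 4.21, 6.57 and 4.02 CPM after sham. All 4 CLP values were higher, with a log2 change of 1.82 ± 0.30 (SE, edgeR adjusted p = 0.000251). At 24 and 72 h its changes of 0.39 ± 0.30 and 0.48 ± 0.31 (SE) were not called.

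The largest fold change of the 10 at 4 h was that of Tnfaip3, also the member with the fewest counts. Tnfaip3 (chr10:19000910-19015657, minus strand) encodes A20, which edits ubiquitin chains on signalling proteins and so ends NF-κB activation. The CLP mice were at 11.6, 3.23, 2.25 and 6.06 CPM, from 23 to 109 counts, and the sham mice at 0.978, 0.421, 0.991 and 0.625 CPM, from 4 to 9 counts. Replicate 1 was highest, yet the other 3 CLP mice were also above all sham mice. The log2 fold change was 2.93 ± 0.65 (SE, edgeR adjusted p = 0.00759). It was not called without replicate 1 of CLP (adjusted p = 0.0942) or without replicate 2 of sham.

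Tnip1 (chr11:54910785-54962917, minus strand) encodes ABIN-1, a partner that brings A20 to ubiquitin chains. At 4 h it was at 58.7, 56.6, 27.1 and 23.1 CPM after CLP and at 15.2, 13.7, 11.8 and 13.7 CPM after sham. Replicates 1 and 2 of CLP were well above replicates 3 and 4, and all 4 were above the sham mice. The log2 fold change was 1.60 ± 0.30 (SE, edgeR adjusted p = 0.00179). At 72 h the groups overlapped, at 17.5 to 36.0 CPM after CLP and 18.9 to 27.5 CPM after sham.

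Birc3 (chr9:7848699-7873186, minus strand), which encodes the ubiquitin ligase cIAP2 of TNF receptor complexes, was at 39.8, 18.1, 19.2 and 22 CPM after CLP at 4 h and at 6.63, 5.90, 8.43 and 12.4 CPM after sham. The groups did not overlap, and the log2 fold change was 1.56 ± 0.31 (SE, edgeR adjusted p = 0.00278). Tnfaip2 (chr12:111442469-111455018, plus strand), a gene first described as induced by tumour necrosis factor in endothelial cells, was at 112, 53.7, 37.0 and 44.6 CPM after CLP and at 37.6, 47.8, 51.1 and 41.7 CPM after sham. Only replicate 1 of CLP stood clearly above the sham mice, replicate 3 was below all of them, and the change of 0.47 ± 0.24 (SE) did not pass (edgeR adjusted p = 0.55).

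Replicate 1 of the CLP mice at 4 h had the highest whole kidney value of its group for all 10 members. Without it, 7 of the 10 members were called, Nfkb1 and Tnfaip3 being lost. With each of the other 7 mice left out in turn, 7 to 9 members were called.

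At the later times fewer members were apart from sham. At 24 h, 2 of the 10 members (Nfkbia and Nfkbiz) were called higher, where 3.04% of all genes tested were, and the CLP and sham values of 3 members did not overlap (these and Tnfaip3), against 4.12% of all genes. The gap of Tnfaip3 lay within counting error, with 4 to 10 counts after CLP and 3 to 5 counts after sham. At 72 h, 1 of the 10 (Nfkbia) was called higher, against 1.74% of all genes tested, and 2 were without overlap, against 4.71%. The median log2 fold change of the 10 was 1.58 at 4 h, 0.53 at 24 h and 0.48 at 72 h, with 0.00, 0.02 and 0.03 over all genes.

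**Figure D2:**
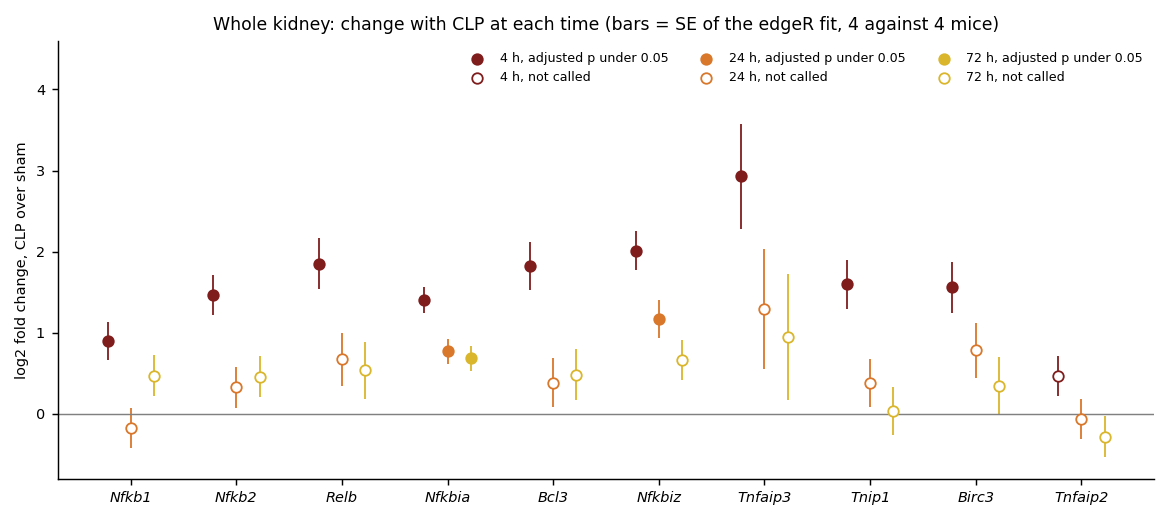
Log2 fold change of CLP over sham for each member in whole kidney at 4, 24 and 72 h, with the SE derived from the edgeR test (4 against 4 mice) as bars and filled points for adjusted p under 0.05. At 4 h 9 points are filled, between 0.90 for Nfkb1 and 2.93 for Tnfaip3, and at 72 h only that of Nfkbia at 0.68 is.

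The fall between times was tested directly, as the CLP change at one time minus that at another. From 4 to 72 h the change of Nfkbiz fell by 1.35 ± 0.34 on the log2 scale (SE, edgeR adjusted p = 0.0250) and that of Tnip1 fell by 1.56 ± 0.42 (SE, edgeR adjusted p = 0.0421). For Tnip1 the sham mice moved too, with means of 13.6 CPM at 4 h and 24.1 CPM at 72 h, against 41.4 and 24.6 CPM after CLP. For Nfkbiz the means were 7.65 and 6.55 CPM after sham and 31.0 and 10.4 CPM after CLP. These 2 of 10 members were called, where 1.67% of all genes tested were called lower, and 0 to 2 were called when 1 mouse was left out. None was called without replicate 1 of CLP at 4 h, replicate 4 of CLP at 72 h, replicate 1 or 3 of sham at 4 h, or replicate 4 of sham at 72 h. The other 8 differences were also below 0, from -0.43 ± 0.34 for Nfkb1 to -1.98 ± 1.03 for Tnfaip3. Between 4 and 24 h 0 of the 10 were called (1.84% of all genes, 1 member by DESeq2). At an unadjusted p under 0.05 there were 7 members, beside 1729 of all 14936 genes tested. Between 24 and 72 h 0 were called (0.509% of all genes, 0 members by DESeq2). At an unadjusted p under 0.05 there were 0 members, beside 1237 of all 14936 genes tested.

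Nfkbia was also higher in sham mice at 4 h than in healthy mice. The operation and whatever else differed between these groups cannot be told apart. The 4 healthy mice were at 88.8, 132, 114 and 127 CPM, all below the 4 sham mice at 4 h, with a log2 fold change of 1.01 ± 0.16 (SE, edgeR adjusted p = 0.000332). Nfkbia was the 1 member of 10 called, against 0.777% of all genes called higher. Birc3, at 2.96 to 6.04 CPM in healthy and 5.90 to 12.4 CPM in sham mice, came next at 0.80 ± 0.33 (SE, edgeR adjusted p = 0.40). At 24 h and 72 h after sham 0 of the 10 members were called by edgeR against healthy mice, where 6.41% and 8.44% of all genes were called in either direction. At an unadjusted p under 0.05 there were 1 and 2 members, beside 3742 and 4031 of all 14936 genes. By DESeq2 there were 0 and 1 members.

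Against healthy mice, a comparison that shares its CLP mice with the one against sham, 9 of the 10 members were higher at 4 h, 5 at 24 h (Nfkbia, Nfkbiz, Nfkb2, Bcl3 and Tnip1) and 3 at 72 h (Nfkbia, Nfkbiz and Nfkb2). Of all genes tested, 5.62%, 11.6% and 9.73% were called higher. With 1 mouse left out, 2 to 6 members were called at 24 h, the fewest without replicate 4 of CLP, and 0 to 2 at 72 h, with 0 without replicate 2 of CLP or replicate 1 of the healthy mice. Nfkbia was 2.41 ± 0.16 higher at 4 h on the log2 scale (SE, edgeR adjusted p = 1.07e-11), 0.87 ± 0.16 at 24 h and 0.51 ± 0.16 at 72 h (SE). Tnfaip2 was not called at any of the 3 times, at 0.11 ± 0.24, -0.60 ± 0.25 and -0.62 ± 0.25 (SE).

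Of 43 other genes of the pathway, a list written with earlier results of these data known, 9 were called higher in whole kidney at 4 h, 5 at 24 h and 0 at 72 h, and 0 were called lower at any time. At 72 h 5 of the 43 had an unadjusted p under 0.05, as did 2067 of all 14936 genes tested. Over all genes tested, 1.69%, 3.04% and 1.74% were called higher at these times. The median change of the 43 was 0.18 at 4 h on the log2 scale, against 0.00 over all genes. The genes called at 4 h included 5 of 14 other brakes and 2 of 14 adaptors and ubiquitin ligases. They also included 1 of 3 other genes of the IκB family, 1 of 2 subunits and 0 of 10 kinases.

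Among the brakes, Tnip3, a relative of Tnip1, was higher by 4.42 ± 0.66 (SE) on the log2 scale at 4 h, and by 2.59 ± 0.73 at 24 h. Zc3h12a, whose product Regnase-1 cuts inflammatory messenger RNAs, was higher by 2.40 ± 0.40 (SE) at 4 h. Socs3, a brake on cytokine receptor signalling, was higher by 3.29 ± 0.51 at 4 h and by 3.08 ± 0.62 at 24 h (SE). Zfp36, which destabilises cytokine messenger RNAs, was higher by 1.59 ± 0.28 (SE) at 4 h.

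Nfkbie, the gene of IκBε, was higher by 2.23 ± 0.41 (SE) at 4 h, and Birc2, the neighbour and relative of Birc3, by 1.04 ± 0.20 (SE). Rela, the gene of the transactivating subunit p65, was higher by 1.05 ± 0.23 (SE) at 4 h. Ikbke, a kinase related to the IκB kinases, was called at 24 h, at 1.63 ± 0.38 (SE). All of these had an edgeR adjusted p under 0.05.

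Over the 28 whole kidney libraries, the genes outside the 10 members whose log2 CPM followed that of Nfkbia most closely were Cebpd (Pearson r = 0.971), Mt2 (0.955), Stat3 (0.955), Mt1 (0.951) and Fosl2 (0.949), of 10370 genes compared. Cebpd, Stat3 and Fosl2 encode transcription factors and Mt1 and Mt2 metallothioneins. Of the members, Birc3 followed it at r = 0.894, Nfkbiz at 0.837 and Relb at 0.827, and Tnip1 at 0.452 and Tnfaip2 at 0.211 were the least alike of the 8 compared. Tnfaip3 averaged under 5 CPM and was not compared. These libraries share the 7 groups, so the values are a description.

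Markers of neutrophils and of macrophages and monocytes moved in the same kidneys, while no marker of a lymphocyte list was called at any time. Of 10 neutrophil markers, 6, 5 and 7 of the 7 tested were called higher after CLP at 4, 24 and 72 h, beside 1.69%, 3.04% and 1.74% of all genes tested. Their summed level was 85.2 to 161 CPM after CLP and 8.69 to 25.5 CPM after sham at 4 h, and 237 to 467 CPM against 2.47 to 5.40 CPM at 72 h. Of 10 macrophage and monocyte markers, 1, 6 and 7 were called higher at the same times, beside the same shares of all genes, with sums of 179 to 216 CPM against 150 to 188 CPM at 4 h and 477 to 694 CPM against 179 to 232 CPM at 72 h. The macrophage and monocyte marker called at 4 h was Cd14. The sums of both lists were higher at 72 h than at 4 h in CLP mice. The part of these cells in the members' changes was not tested.

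Among 8 markers of proximal tubule, 0 were called at 4 h. At 24 h 4 were called lower (Slc34a1, Miox, Kap and Slc7a13), and at 72 h 4 were (Miox, Slc22a6, Kap and Slc7a13). Of all genes tested, 0.556%, 2.24% and 2.15% were called lower at 4, 24 and 72 h. Of 10 endothelial markers 1 was called higher and 1 lower at 4 h. The summed endothelial level at 4 h was 590 to 635 CPM after CLP and 607 to 636 CPM after sham.

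Detection of the members differed between the microdissected compartments. In glomeruli 9 of the 10 members had more than 3 counts in 22 to 28 of 28 libraries, and Tnfaip3 did in 8. Without Tnfaip3 the range was 14 to 28 libraries in venules and 13 to 28 in arterioles, and in peritubular capillaries it was 3 to 26. Every Nfkbia value but 2 in peritubular capillaries was above 0, whereas Tnfaip3 was at 0 in 15 of 28 glomerular, 17 venular, 18 arteriolar and 20 peritubular libraries. A count of 0 allows up to 3 counts, for counting error only. Values at 0 were more common at 24 and 72 h than in healthy and 4 h mice: 23 of 160 against 3 of 120 in glomeruli, 57 of 160 against 6 of 120 in arterioles, 37 of 160 against 6 of 120 in venules and 102 of 160 against 13 of 120 in peritubular capillaries. Libraries of the later times also held fewer detected genes, with medians of 6982 against 12632.5 in peritubular capillaries. The part of this in the later comparisons was not tested.

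The labels of glomeruli and arterioles went with their markers, and that of peritubular capillaries did so less. In healthy mice the 6 podocyte markers summed to 8380 to 10100 CPM in glomeruli and to no more than 1563 CPM in any other microdissected library, and the 6 smooth muscle markers to 18083 to 38056 CPM in arterioles and to no more than 1922 CPM elsewhere. The 10 endothelial markers summed to 548 to 1705 CPM in peritubular capillaries, beside 532 to 648 CPM in whole kidney. The 8 proximal tubule markers summed to 64148 to 115824 CPM there, beside 39651 to 40915 CPM in whole kidney.

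Nfkbia differed between the compartments of healthy mice. It was at 934, 963, 345 and 428 CPM in arterioles, at 487, 547, 515 and 343 CPM in glomeruli, at 238, 216, 188 and 249 CPM in venules and at 129, 30.0, 151 and 101 CPM in peritubular capillaries, each compartment being scaled on its own. The compartments fell in that order, although arterioles and glomeruli overlapped. In 1 fit with the mouse as a block, arterioles were higher than the mean of the other 3 by 1.76 ± 0.41 (SE, log2, edgeR adjusted p = 0.00191) and peritubular capillaries were lower, at -1.84 ± 0.48 (SE, edgeR adjusted p = 0.00973).

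It was the 1 of 10 members called in each, against 4.93% of all genes called higher in arterioles and 2.61% called lower in peritubular capillaries. Both calls were lost without replicate 2 of the healthy mice. No member passed in glomeruli (4.18% of all genes in either direction, 1 member by DESeq2) or in venules (0.591%, 0 members by DESeq2). At an unadjusted p under 0.05 there were 4 of 10 members in glomeruli, beside 1826 of 12179 genes. In venules there were 0 of 10, beside 1188 of 12179 genes.

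At 4 h the Nfkbia values of all 4 CLP mice lay above those of all 4 sham mice in each of the 5 compartments. In glomeruli they were 2397, 2077, 1395 and 1584 CPM after CLP and 751, 463, 404 and 1340 CPM after sham. In arterioles they were 2033, 2557, 1455 and 1283 CPM against 772, 424, 299 and 1237 CPM. In both, replicate 4 was the highest sham mouse and came close to the lowest CLP mouse.

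In venules Nfkbia was at 2443, 1236, 794 and 983 CPM after CLP and at 522, 143, 342 and 692 CPM after sham. In peritubular capillaries it was at 749, 519, 561 and 472 CPM against 313, 140, 149 and 309 CPM. The log2 fold changes were 1.33 ± 0.35 in glomeruli, 1.42 ± 0.43 in arterioles, 1.68 ± 0.38 in venules and 1.34 ± 1.15 in peritubular capillaries (SE), beside 1.40 ± 0.16 in whole kidney. None of the 4 microdissected changes passed on its own, with edgeR adjusted p of 0.19, 1, 0.16 and 1.

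**Figure D3:**
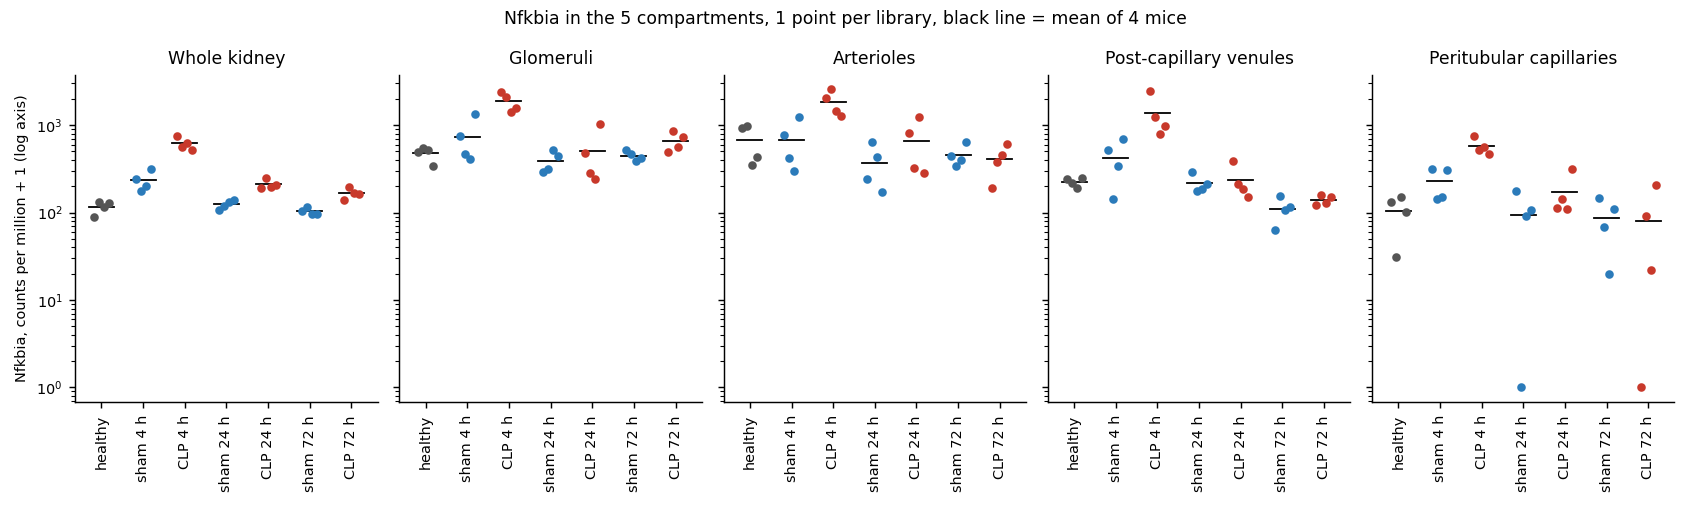
Nfkbia as CPM plus 1 (log axis) in each library of the 5 compartments by group, 1 point per mouse, with the mean of 4 mice as a black line. At 4 h every CLP point lies above every sham point in all 5 panels, and the 2 points at 1 in peritubular capillaries are libraries with no count.

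For a deeper readout per mouse, the raw counts of its 4 microdissected libraries were added up. Each compartment is thus weighted by its depth in that mouse, and the part of this weighting in the changes was not tested. In the sums 2 of the 10 members were called higher at 4 h, against 0.0832% of all genes tested. Nfkbia was at 1724, 1497, 1003 and 951 CPM after CLP and at 593, 296, 266 and 821 CPM after sham, without overlap, a log2 change of 1.39 ± 0.29 (SE, edgeR adjusted p = 0.0319). Tnip1 was at 189, 124, 89.1 and 53.3 CPM against 7.10, 12.6, 28.9 and 3.29 CPM, also without overlap, a change of 3.13 ± 0.64 (SE, edgeR adjusted p = 0.0281). Its sums in healthy mice, at 21.8 to 51.6 CPM, lay below all CLP values and overlapped the sham values. The Nfkbia call was lost without replicate 1 or 2 of CLP or replicate 1, 2 or 3 of sham, with an adjusted p of up to 0.322. The Tnip1 call was lost without replicate 1 or 2 of CLP or replicate 1, 2 or 4 of sham, with an adjusted p of up to 0.273.

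Another 4 members of the sums (Relb, Bcl3, Nfkbiz and Tnfaip2) had all CLP values above all sham values at 4 h without being called. These 6 of 10 members stand beside 2.93% of all genes tested. At 24 and 72 h 0 of the 10 members were called in the sums by edgeR (0.541% and 0.428% of all genes in either direction). At an unadjusted p under 0.05 there were 2 and 1 members, beside 2174 and 2419 of all 16834 genes. By DESeq2 there were 1 and 0 members.

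In glomeruli Tnfaip2 was called at 4 h. It was at 805, 295, 490 and 664 CPM after CLP and at 174, 100, 110 and 228 CPM after sham. The lowest CLP mouse, replicate 2, was above the highest sham mouse, and the log2 change was 1.88 ± 0.41 (SE, edgeR adjusted p = 0.0376). It was the 1 of 10 members called there, against 0.0891% of all genes called higher. The call was lost without replicate 1, 3 or 4 of CLP or replicate 1, 2 or 3 of sham, with an adjusted p of up to 0.385 without replicate 1 of CLP.

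Nfkbia, Nfkb2, Bcl3, Tnip1 and Birc3 were also without overlap in glomeruli at 4 h, which makes 6 of 10 members beside 3.02% of all genes tested. In healthy glomeruli Nfkb2 was at 57.5 to 140 CPM, Tnip1 at 24.2 to 88.6 CPM and Bcl3 at 0.870 to 41.0 CPM, overlapping their CLP values. Healthy values of Nfkbia, Birc3 and Tnfaip2 lay below all CLP values. Healthy values of Nfkb2 lay above all its sham values, at 31.0 to 53.1 CPM. Tnip1 was at 273, 215, 58.9 and 55.9 CPM after CLP and at 25.7, 9.94, 28.1 and 5.53 CPM after sham. Its replicates 1 and 2 were the high ones, as in whole kidney, and the log2 change was 3.12 ± 0.74 (SE, edgeR adjusted p = 0.0875). DESeq2 called 3 members in glomeruli at 4 h (Tnfaip2, Tnip1 and Nfkbia).

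Neutrophil markers were higher in the same glomeruli. Their sum was 1350 to 2690 CPM after CLP at 4 h and 45.3 to 228 CPM after sham, and 1 of the 9 markers tested was called higher. None of the 10 markers was at 0 in all 4 CLP glomerular libraries. The macrophage and monocyte sum was 303 to 588 CPM after CLP and 199 to 358 CPM after sham, with 0 of 10 called. The part of these cells in the glomerular values was not tested.

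The glomerular change of Tnfaip2 was set against its change in whole kidney of the same 8 mice, a comparison added after the values had been seen. The difference was 1.54 ± 0.42 (SE, log2, unadjusted p = 0.00141) and did not pass (edgeR adjusted p = 0.80). Of the 10 members 0 were called, against 0.0274% of all genes, and 2 had an unadjusted p under 0.05, as did 669 of all 14592 genes. DESeq2 was not run on it.

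In arterioles 0 of the 10 members were called at 4, 24 or 72 h, against 0.00821%, 0.0164% and 0% of all genes. At an unadjusted p under 0.05 there were 2, 0 and 1 members, beside 418, 1890 and 2100 of 12183 genes. By DESeq2 there were 0, 0 and 1 members. In venules 0 were called at the 3 times, against 0%, 0.0813% and 0.0443% of all genes. There 3, 1 and 0 members passed an unadjusted p of 0.05, beside 768, 1385 and 1715 of 13530 genes. By DESeq2 2, 1 and 0 members were called. In glomeruli 0 were called at 24 and 72 h, against 0.137% and 0.0343% of all genes, and 0 and 0 by DESeq2. With an unadjusted p under 0.05 there were 2 and 0 members, beside 1803 and 1498 of 14586 genes.

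Values without overlap at 4 h were found for 4 of 10 members in arterioles (Nfkbia, Relb, Bcl3 and Tnip1), against 1.86% of all genes tested, and for 3 of 10 in venules (Nfkbia, Nfkb2 and Tnfaip3), against 1.84%. Of these, the gap of Tnfaip3 in venules was between 3 counts in the lowest CLP library and 2 counts in the highest sham library, and that of Relb in arterioles between 10 and 7 counts, both within counting error. In arterioles Bcl3 was at 55.9, 40.3, 33.9 and 76.5 CPM after CLP and at 2.33, 21.1, 0.338 and 0.755 CPM after sham. Tnip1 there was at 144, 189, 154 and 86.0 CPM against 0.621, 1.40, 29.7 and 3.40 CPM. Neither was called, with log2 changes of 3.07 ± 2.96 and 4.03 ± 2.21 (SE). In healthy arterioles Bcl3 was at 0.286 to 3.80 CPM, below all CLP values, and Tnip1 at 0.912 to 126 CPM, overlapping them. In venules Nfkb2 was at 208, 78.5, 59 and 83.1 CPM after CLP and at 18.9, 22.1, 3.95 and 13.7 CPM after sham.

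**Figure D4:**
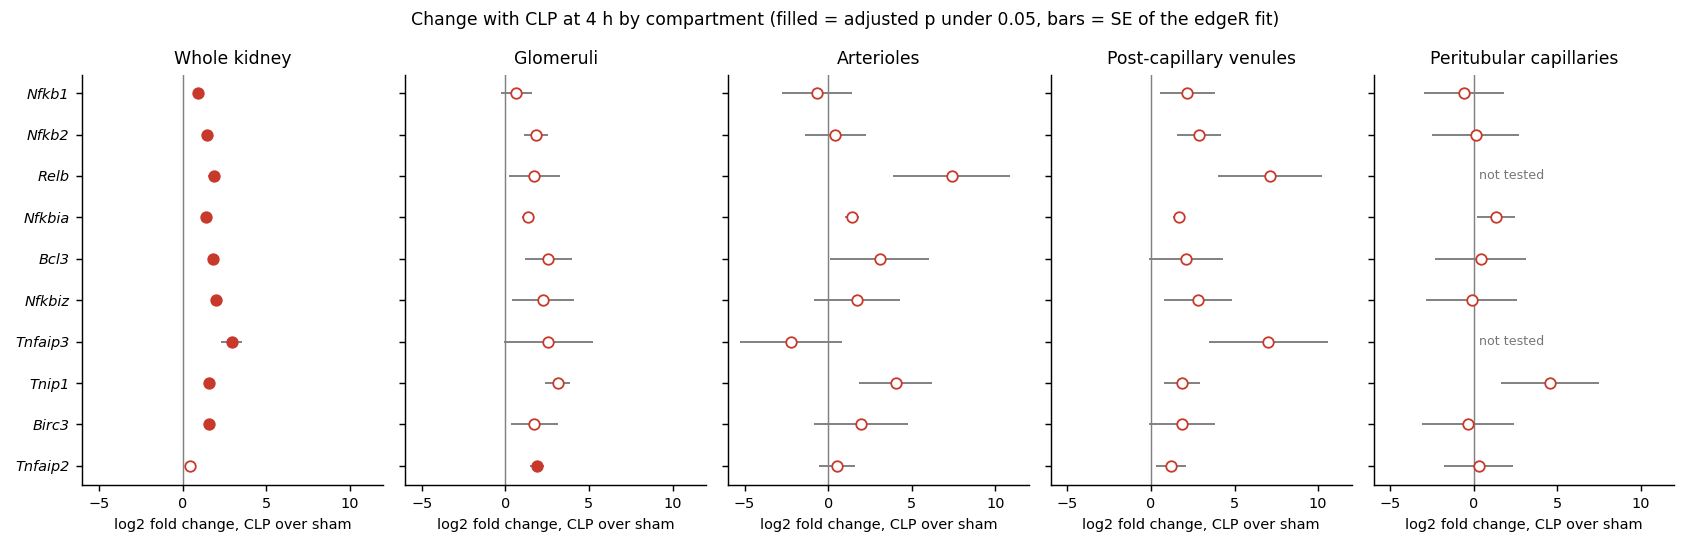
Log2 fold change of CLP over sham at 4 h for each member in the 5 compartments, with the SE derived from the edgeR test (4 against 4 mice) as bars and filled points for adjusted p under 0.05. Bars in the microdissected compartments reach several log2 units for members with few counts, and Tnfaip2 in glomeruli is the only filled point outside whole kidney.

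Peritubular capillaries were the compartment in which 2 members, Relb and Tnfaip3, had too few counts to be tested. Of the 8 tested, 0 were called at 4 h or 24 h, against 0% and 0.051% of all genes, and 0 and 2 by DESeq2. With an unadjusted p under 0.05 there were 0 and 3 members, beside 384 and 2267 of 11772 genes. At 4 h 1 of 8 members (Nfkbia) was without overlap, against 2.14% of all genes tested.

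At 72 h Tnip1 and Nfkb2 were called lower in CLP peritubular capillaries, 2 of 8 members tested. This was near the share of all genes called lower, 20.5%, with a median log2 change of -1.28 over all genes. Of the 8 members, 2 had a change above 0 and 0 were called higher. Nfkb1 averaged 70.3 CPM after CLP, with 1 of 4 libraries at 0, and 0.457 CPM after sham. Tnip1 was at 6.74, 34.7, 1.81 and 4.00 CPM in sham mice, and Nfkb2 at 0.566, 0, 5.20 and 26 CPM. All 4 CLP libraries held no count of either gene. Against the floor of 3 counts per library, Tnip1 was at least 37.2-fold lower (edgeR adjusted p = 0.0439) and Nfkb2 at least 25.0-fold lower (edgeR adjusted p = 0.0467) as means of 4 mice. Each bound rested on 1 sham mouse: without replicate 2 the bound of Tnip1 was 13.2-fold, and without replicate 4 that of Nfkb2 was 6.06-fold (a check added after the values had been seen). These CLP libraries detected 2949 to 5595 genes, against 7137 to 9816 in sham mice, and both calls were lost with relative log expression scaling. Both were also lost without replicate 1, 2, 3 or 4 of CLP or replicate 2 of sham, and that of Nfkb2 without replicate 1 or 4 of sham. Of 10 endothelial markers 2 were called lower in the same comparison, and Cdh5 was at 0 in all 4 CLP libraries. The part of the lower detection in these calls was not tested.

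After the sham operation 0 members were called against healthy mice at 4 h in any microdissected compartment, where 0% of all genes were called in arterioles, 0.00686% in glomeruli, 0% in peritubular capillaries and 0% in venules. At an unadjusted p under 0.05 there were 0, 1, 0 and 2 members, and by DESeq2 0 in each. Of all genes, 668 of 12183, 707 of 14586, 347 of 11772 and 644 of 13530 had such an unadjusted p. Nfkbia was at 522, 143, 342 and 692 CPM in sham venules at 4 h and at 238, 216, 188 and 249 CPM in healthy ones, which overlapped, with a log2 change of 0.93 ± 0.37 (SE, edgeR adjusted p = 0.99).

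A difference of the CLP change among arterioles, glomeruli, peritubular capillaries and venules was looked for with the mouse as a block, by a joint test of 3 interaction terms (32 libraries, 8 mice). No member was called by edgeR at 4, 24 or 72 h, where 0.021%, 0.161% and 1.48% of all genes tested were. Among the members tested (10, 10 and 9), 0, 1 and 1 passed an unadjusted p of 0.05. Of all genes, 830 of 14272, 686 of 13635 and 1643 of 13475 did. By DESeq2 0, 1 (Nfkb2) and 1 (Tnip1) were called.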

How the data were processed

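The deposited table holds raw read counts per gene, which the authors made from QuantSeq 3′ libraries, 1 column per library, with no normalization. The submitters' processing notes name STAR 2.7, HTSeq 0.13, featureCounts, SAMtools 1.9, FastQC 0.11.8 and MultiQC 1.7, and the builds GRCm38.p6 and GRCm39. Which build and counter gave the table is not given in the sources used here, so gene positions are those of the GRCm38 annotation. Metadata deposited with the counts give the healthy mice a time of 4 h where the sample labels give 0 h, and the labels were used.

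Counts were analysed in R 4.3.3 with edgeR 4.0.16 (filterByExpr, TMM scaling, robust quasi-likelihood test), 1 fit per compartment over its 28 libraries, with Benjamini-Hochberg adjustment over all genes tested and a threshold of 0.05. Healthy compartments and interactions were fitted with the mouse as a block. Each SE was derived from the edgeR test, as the absolute log2 fold change over the square root of the F statistic. Members and lists were chosen with earlier results of these data known. Named genes are all 10 members and the 8 other pathway genes with the smallest adjusted p among those called in whole kidney. Alternatives were relative log expression size factors, no filter, DESeq2 1.42.0, the 8 libraries alone, a replicate block, and leaving out each mouse. Genes most like Nfkbia were ranked by Pearson's r of log2(CPM + 1) among genes averaging 5 CPM or more. The tests were also run on simulated counts, whose outcome is not given here, so no result above rests on it. Python 3.11.15 was used for the tables.

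Mice carry replicate numbers within groups, and were not treated as pairs, because no compartment and time had all 4 correlations between same-numbered CLP and sham mice over 0.1 (the highest single one was 0.468, in whole kidney at 24 h). Each library's counting precision falls with few counts, and intervals and floors cover counting error only.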

Additional observations from a re-analysis of the deposited data

Results flagged for a closer look

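In 12 of 206 groups of 4 mice, 1 library lay far from the other 3 by Dixon's criterion for 4 samples, and chance flags about 1 in 20 groups. In arterioles these were Nfkb1 at 5.09 CPM in replicate 1 of CLP at 72 h, Nfkbiz at 94.6 CPM in replicate 3 of CLP at 24 h and Tnip1 at 29.7 CPM in replicate 3 of sham at 4 h. In glomeruli it was Nfkbiz at 8.99 CPM in replicate 4 of the healthy mice. In peritubular capillaries these were Nfkbia at 318 CPM in replicate 4 of CLP at 24 h and Tnip1 at 34.7 CPM in replicate 2 of sham at 72 h.

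Venules held 5 such values. Nfkb1 was at 124 CPM in replicate 4 of the healthy mice, and Nfkb2 at 208 CPM in replicate 1 of CLP at 4 h, at 55.4 CPM in replicate 2 of the healthy mice and at 66.2 CPM in replicate 3 of sham at 24 h. Tnip1 was at 37.2 CPM in replicate 2 of sham at 72 h. In whole kidney Bcl3 was at 3.37 CPM in replicate 1 of sham at 24 h.

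The CLP change in whole kidney differed between 4 and 72 h for Tnip1 (-1.56, log2) and Nfkbiz (-1.35, log2), by the test of the difference itself in edgeR.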

How the results depend on the processing

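The 9 members called in whole kidney at 4 h were also called with relative log expression size factors, with no filter on low counts, by DESeq2, with the 8 libraries alone and with the replicate block. For 35 log2 changes of single members (all 10 in whole kidney at 3 times, and the 5 called elsewhere), 399 alternative values kept direction and side of the threshold, 47 kept direction only and 6 changed sign, all without a call. These were the whole kidney changes of Nfkb1 at 24 h (-0.478 to 0.0329 over the mice left out, positive without sham replicate 1), Tnfaip2 at 24 h (-0.167 to 0.0829, positive without CLP replicate 3 at 0.0494 or sham replicate 2), Tnfaip3 at 72 h (-0.19 to 2.63, negative without CLP replicate 1) and Tnip1 at 72 h (-0.222 to 0.163, negative without CLP replicate 2 or, at -0.064, sham replicate 1).

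Counts of called members that moved are given by setting. With the replicate block 1 was called for the change from 4 to 24 h in whole kidney, 1 for sham at 72 h against healthy mice, and 0 in peritubular capillaries at 72 h, where relative log expression, no filter and the 8 libraries alone also gave 0. Over all genes there, 2413 were called lower, against 902 with relative log expression, 621 with no filter, 822 with the replicate block, 12 with the 8 libraries alone and 3635 by DESeq2. In whole kidney at 24 h 454 of all genes were called higher, and 187 with the 8 libraries alone. In no other comparison did the replicate block move the count by over 1.5 times. Without the block 2 were called in healthy arterioles, as with relative log expression. With no filter 3 were called in glomeruli at 4 h, 1 in venules at 4 h, 2 for the change from 4 to 24 h and 4 for that from 4 to 72 h. With the 8 libraries alone the counts were 2 in glomeruli and 1 in the sums at 4 h, and 1 in whole kidney at 24 h.

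DESeq2 called 3 in glomeruli and 2 in venules at 4 h, 1 in arterioles and 4 in peritubular capillaries at 72 h, 2 in peritubular capillaries, 1 in venules and 1 in the sums at 24 h. It called 2, 1 and 4 in healthy arterioles, glomeruli and peritubular capillaries, 1 for the change from 4 to 24 h, 1 for sham at 72 h, and 1 each for the interactions at 24 and 72 h. Apart from peritubular capillaries at 72 h, the number of all genes called by DESeq2 is not given here.

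Leaving out 1 mouse gave 0 to 2 calls in glomeruli and in the sums at 4 h, in peritubular capillaries at 72 h, for the change from 4 to 72 h, and for CLP and sham against healthy mice at 72 h. It gave 0 to 3 for the change from 4 to 24 h, 2 to 6 for CLP against healthy mice at 24 h, and 0 to 1 in whole kidney at 72 h and in healthy arterioles and peritubular capillaries. The cause of these changes was not tested. Total counts per library overlapped in range between all compartments, while fewer genes were detected in the microdissected ones, where many member values were at 0 and standard errors reached several log2 units.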
